A study of Mus musculus with 6 samples.

Results

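Integrins are cell surface receptors built from 1 alpha and 1 beta subunit, which tie the actin cytoskeleton to proteins of the extracellular matrix and to other cells. The alpha subunit largely sets the ligand: Itga3 and Itga6 encode laminin receptors, Itga5 and Itgav encode receptors for fibronectin, vitronectin and related matrix proteins, and Itga4 and Itga9 encode a pair of related subunits that bind Vcam1, fibronectin and tenascin. Cd44 is a receptor for hyaluronan, a sugar polymer of the matrix, and binds the cytoskeleton through ezrin, radixin and moesin. In the epithelial-to-mesenchymal transition (EMT), cells leave an epithelium anchored on a laminin-rich basement membrane and move into interstitial matrix, and changes of integrin use are a known part of that process.

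The genes described here are the integrin subunits Itga3, Itga4, Itga5, Itga6, Itga9, Itgav, Itgb1, Itgb3 and Itgb5, together with Cd44. Every probe set of the array whose only listed gene symbol was one of these 10 was taken, which gave 38 probe sets of the 45037 in the data (10 of 18193 genes). Gene expression was measured on 6 Affymetrix arrays, 1 per condition and time. All 6 carried RNA from A2.Snail cells, a mouse ESC line with a Snail transgene under control of doxycycline (dox), grown as embryoid bodies in serum with DKK, an inhibitor of Wnt signaling. The DKK + dox cultures received dox at 250 ng/mL on day 2, the DKK cultures received none, and both were harvested 6, 12 and 24 hours after that time (days 2.25, 2.5 and 3). The line was made from A2lox cells by Cre-mediated insertion of a targeting vector, and the sources used here do not say how many clones were used; no array had dox without the Snail transgene.

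Values are linear intensities that the authors normalized and modeled with dChip. A difference is the log2 value in DKK + dox less that in DKK, after 20.6 (the 25th percentile over the arrays) was added to each intensity, which makes the change of dim genes look smaller than it was. An intensity of 37.2 or less, the 40th percentile, is called low signal. A difference at 1 time compares 2 arrays and has no replicate check. The test was limma's: each time point had its own level, the difference between conditions was taken to grow in proportion to the hours since dox, and the fitted difference given is the one reached at 24 hours. Genes "rose" or "fell" where the Benjamini-Hochberg adjusted p over 14755 genes was under 0.05. The fit has 2 residual degrees of freedom of its own, and limma adds 5.5 borrowed from all genes tested. A p-value tests whether the fitted trend is 0, against the scatter of 6 arrays about that trend. It holds no spread between replicate cultures. Each gene was read from its brightest probe set, and intensities are not compared between genes, since probe sets differ in brightness.

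The arrays were close in scale, with medians of 53.6 to 63.7. Cdh1, which encodes E-cadherin, fell (fitted difference -1.25, standard error 0.17, adjusted p = 0.00456 from limma), while the probe set of Snai1 was at low signal on all 6 arrays and does not check the labels. Of 10 markers of pluripotent cells and epiblast, all 10 exceeded the low-signal limit, with summed intensities of 35438 to 39196 in DKK + dox and 40826 to 40976 in DKK. Summed intensities of 14 parietal endoderm markers were 5677 to 8955 in DKK + dox and 4345 to 5783 in DKK, and those of 10 blood and endothelium markers (Pecam1 at low signal throughout) were 386 to 2444 in DKK + dox and 373 to 539 in DKK. Visceral endoderm markers (11 of 12 on the array, with Afp and Apob at low signal throughout) summed to 1875 to 3856 in DKK + dox and 2492 to 4206 in DKK, and 10 feeder fibroblast markers (Lum, Postn and Fap at low signal throughout) to 711 to 998 in DKK + dox and 589 to 949 in DKK. No marker was at the lowest value on every array. At 24 hours the sums in DKK + dox and DKK were 8955 and 4345 for parietal endoderm, and 2444 and 433 for blood and endothelium. They were 998 and 589 for feeder fibroblasts, 36031 and 40976 for pluripotent cells and epiblast, and 1892 and 2820 for visceral endoderm. A sum mostly follows its brightest genes. The part of these cell types in the results below was not tested, and in whole cultures fewer cells of a type and less RNA per cell cannot be told apart.

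Of the 10 members, 9 passed the filter on low signal, and Itgb3 did not. With Snail induced, Itgav and Itga5 rose, Itga6 fell, and Itga3, Itga4, Itga9, Itgb1, Itgb5 and Cd44 did not pass. The 2 of 9 that rose and the 1 of 9 that fell stand beside 8.32 percent and 6.38 percent of all genes tested, which is less than 1 gene of 9 in each direction. At 24 hours, 2 members were at least 2-fold higher (Itgav and Itga5) and 1 at least 2-fold lower (Itga6), against 3.12 percent and 2.20 percent of all genes. At 12 hours Itga6 was the only member at least 2-fold lower, against 2.25 percent of all genes. The members were chosen with earlier results of these data known, so these shares do not test them as a set. The median difference of the 9 members was 0.05 at 6 hours, 0.43 at 12 hours and 0.43 at 24 hours, where the medians over all 14755 genes were -0.04, 0.03 and 0.02.

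**Figure D1:**
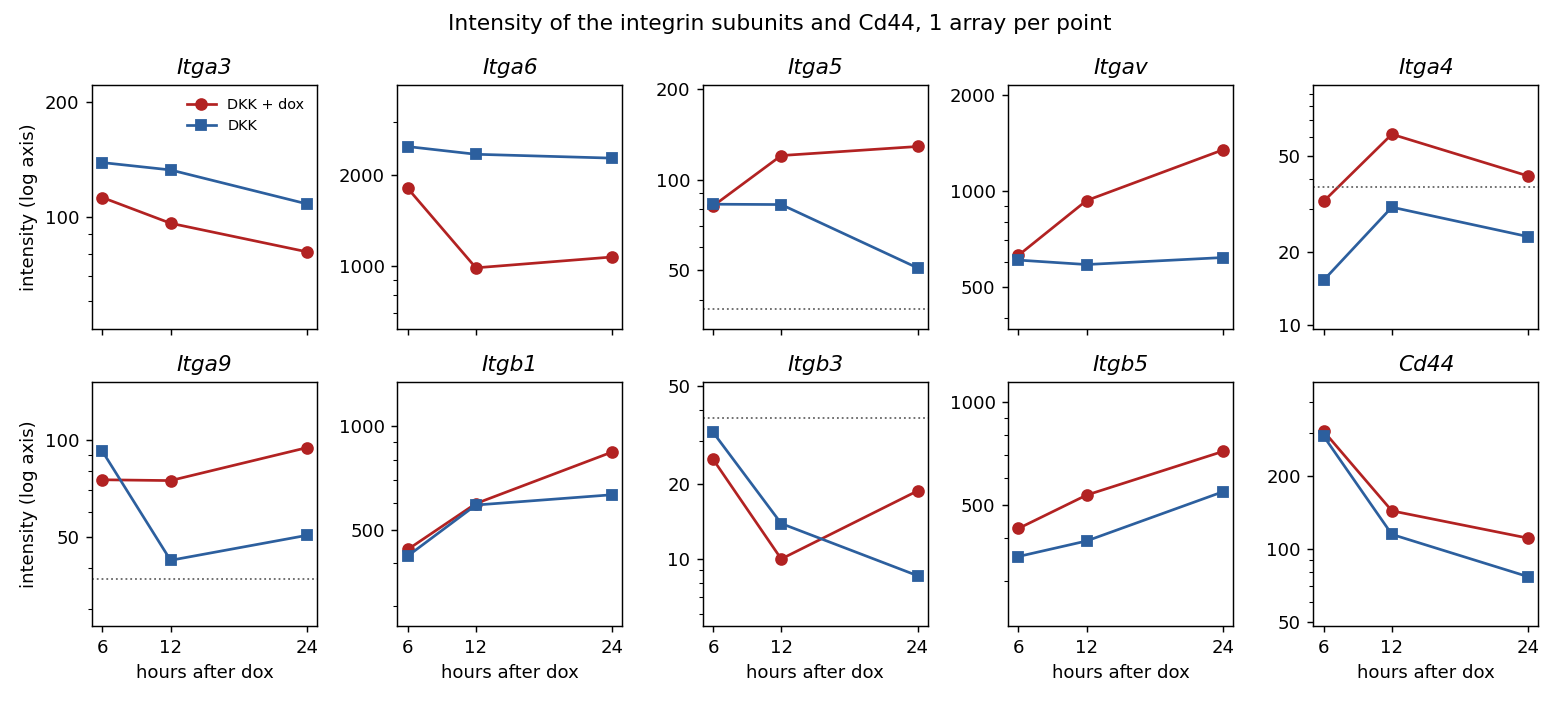
Intensity (log axis) of each culture 6, 12 and 24 hours after dox was added, for the probe set read for each of the 10 genes, with DKK + dox in red and DKK in blue, 1 array per point and the low-signal limit of 37.2 as a dotted line. Itga6 lies lower with dox at the 3 times, Itgav parts from DKK at 12 and 24 hours, and Cd44 is lower at 24 than at 6 hours in both conditions.

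Among the laminin receptors, Itga6 fell and Itga3 did not pass. Itga6 encodes an alpha subunit that pairs with Itgb1 or Itgb4 and anchors epithelial cells to laminin. Its intensity was 1808, 986 and 1071 in DKK + dox at 6, 12 and 24 hours, against 2486, 2344 and 2276 in DKK. The 3 DKK + dox arrays all lay below the 3 DKK arrays, as was so for 7.09 percent of all genes tested and for no other member. The measured differences were -0.45, -1.23 and -1.07, so that the separation was widest at 12 hours, and the fitted difference was -1.37 (standard error 0.22, 95% interval -1.88 to -0.87, adjusted p = 0.0079 from limma). A second probe set of Itga6 gave 435, 220 and 264 in DKK + dox, against 674, 667 and 591 in DKK, and fell as well (fitted difference -1.53, adjusted p = 0.016 from limma over 26362 probe sets). In DKK alone Itga6 moved little, with a difference of -0.13 between 24 and 6 hours. The call rests on how the trend was fitted: with linear time in place of the block the adjusted p of Itga6 was 0.0796 from limma, with a constant difference over the 3 times 0.0632, and without the intensity trend 0.0799.

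Itga3, whose product pairs with Itgb1 as another laminin receptor, had 112, 96.1 and 80.9 in DKK + dox, against 139, 133 and 108 in DKK. It was lower with dox at each time, by -0.26, -0.39 and -0.34, and the conditions overlapped, since DKK at 24 hours lay under DKK + dox at 6 hours. The fitted difference of -0.46 had a 95% interval of -0.93 to 0.01 (adjusted p = 0.179 from limma). Its other probe sets differed in sign: they were at 0.22 and -0.17 at 24 hours, so no direction is given for Itga3.

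Itgav and Itga5 rose. Itgav encodes the alpha subunit that pairs with Itgb1, Itgb3, Itgb5, Itgb6 or Itgb8 and binds matrix proteins through the short motif Arg-Gly-Asp. Its intensity was 628, 934 and 1348 in DKK + dox, against 607, 588 and 618 in DKK. DKK stayed nearly level while DKK + dox was higher at each later time, and the lowest DKK + dox array lay just above the highest DKK array, a separation seen in 5.10 percent of all genes. The differences of 0.05, 0.65 and 1.10 lay close to a trend in proportion to hours (fitted difference 1.09, standard error 0.13, 95% interval 0.79 to 1.40, adjusted p = 0.00311 from limma). Within DKK + dox, Itgav was the only member at least 2-fold higher at 24 than at 6 hours (1.08, against 5.94 percent of all genes).

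The other probe sets of Itgav did not show this. One with a signal over the limit on all 6 arrays had 54.2, 49.7 and 57.6 in DKK + dox, against 57.0, 51.6 and 61.9 in DKK, with differences between -0.08 and -0.04. Another pair exceeded the limit on 1 array each and was at 0.29 and 0.62 at 24 hours, and the last was at low signal throughout. With the mean of all probe sets in place of the brightest, Itgav had a fitted difference of 0.30 and did not pass (adjusted p = 0.359 from limma). Where each probe set lies on the transcripts was not analysed here.

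Itga5 encodes the alpha subunit of the classical fibronectin receptor, formed with Itgb1. Its intensity was 81.8, 120 and 129 in DKK + dox, against 82.9, 82.7 and 51.0 in DKK. The conditions were level at 6 hours and apart at 24 hours, where DKK + dox was higher than at 6 hours and DKK lower (0.55 and -0.53 between 24 and 6 hours). The differences were -0.02, 0.45 and 1.06, and the fitted difference was 0.98 (standard error 0.22, 95% interval 0.47 to 1.48, adjusted p = 0.0251 from limma). This reading rests on 1 probe set of a kind that can match several transcripts, since the other 3 were at low signal on every array, 1 of them at the lowest value on all 6. Without the 24 hour pair neither gene passed (adjusted p = 0.078 for Itgav and 0.439 for Itga5 from limma), while Itga6 did (adjusted p = 0.0057 from limma). Neither gene passed without the intensity trend or with a constant difference, and Itga5 did not pass with linear time (adjusted p = 0.136 from limma) or with the mean of all its probe sets (adjusted p = 0.172 from limma).

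Because Itgav and Itga5 rose together, the bases before their start sites are shown (RefSeq, GRCm38.p6, both 150 bases long and ending at the base before the start site). Snail proteins bind E-boxes with the letters CAGGTG, and these letters were searched on both strands of a window of 250 bases before and 50 bases after each start site. Of the 10 members, 8 had a window in the table used here (Itga6 and Itgb3 had none). Neither gene held the letters in its window, so no base is capitalised in this pair.
Itgav, chr2:83724247-83724396, plus strand: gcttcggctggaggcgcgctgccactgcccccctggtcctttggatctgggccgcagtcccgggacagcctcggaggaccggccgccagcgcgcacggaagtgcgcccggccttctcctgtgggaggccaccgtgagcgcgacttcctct
Itga5, chr15:103366792-103366941, minus strand: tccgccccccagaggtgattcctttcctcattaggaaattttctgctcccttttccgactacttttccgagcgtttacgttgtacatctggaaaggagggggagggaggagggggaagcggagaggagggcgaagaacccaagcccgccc

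The letters stood in the windows of 3 members that did not pass, Itga3, Itga9 and Itgb5, which is 3 of the 9 windows these genes have, against 20.2 percent of all 32851 windows. They are shown to set the matches beside the members' values, with the matching letters in capitals. In Itga3 the match begins 195 bases before the start site, in Itga9 the matches begin 87 and 55 bases before it, and in Itgb5 the match begins 109 bases before it and is on the opposite strand. For Itga3, Itga9 and Itgav the start site used lies inside the gene as RefSeq bounds it, so other transcripts begin further upstream, and both Itga9 matches lie within the gene. A match is a description of these letters and not a binding site.
Itga3, chr11:95076877-95076936, minus strand: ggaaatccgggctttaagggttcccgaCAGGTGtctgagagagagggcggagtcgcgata
Itga9, chr9:118711578-118711669, plus strand: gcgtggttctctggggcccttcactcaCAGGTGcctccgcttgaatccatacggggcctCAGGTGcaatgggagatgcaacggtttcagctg
Itgb5, chr16:33829529-33829588, plus strand: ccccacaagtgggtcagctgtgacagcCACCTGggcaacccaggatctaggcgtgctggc

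**Figure D2:**
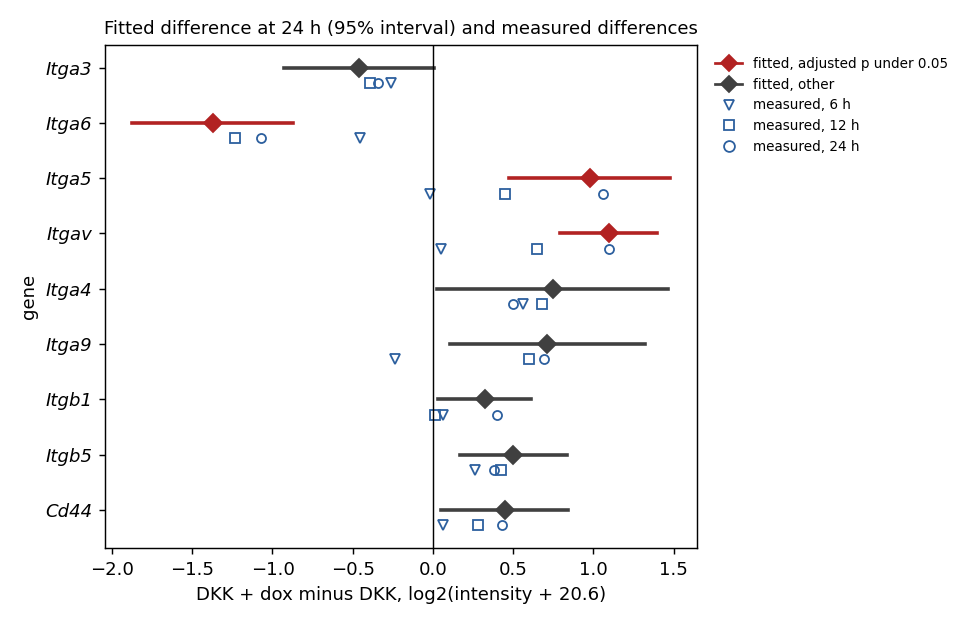
DKK + dox minus DKK in log2 units for the 9 tested genes, with the fitted difference at 24 hours as a diamond, its 95% interval as a line and the measured differences at 6, 12 and 24 hours as open blue triangles, squares and circles. Itga6 (-1.37), Itga5 (0.98) and Itgav (1.09) have an adjusted p under 0.05 and are in red.

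Itga4 and Itga9, the related pair that binds Vcam1 and tenascin, did not pass. Itga4 had 32.4, 61.4 and 41.2 in DKK + dox, against 15.3, 30.6 and 23.1 in DKK. Every DKK + dox array lay above every DKK array, as for 5.10 percent of all genes and, among tested members, for Itgav alone besides. Itga4 passed the filter only through the DKK + dox arrays at 12 and 24 hours, so that its higher signal there was a condition of its being tested. The fitted difference of 0.75 did not pass (adjusted p = 0.159 from limma). A second probe set of Itga4 exceeded the limit on 1 array, with 46.8 in DKK + dox at 24 hours against 23.8 in DKK, and the other 3 were at low signal throughout. Itga9 had 75.2, 74.8 and 94.6 in DKK + dox, against 92.2, 42.4 and 50.6 in DKK. DKK was the higher condition at 6 hours and the lower at 12 and 24 hours, with differences of -0.23, 0.60 and 0.69 (fitted difference 0.71, 95% interval 0.11 to 1.32, adjusted p = 0.117 from limma). A second probe set of Itga9 exceeded the limit only in DKK + dox at 24 hours, with 50.2 against 27.5 in DKK. Its higher signal there was a condition of its being tested. It was at 0.56 at 24 hours and did not pass (adjusted p = 0.215 from limma).

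Beta subunits carry the tail that binds talin and kindlins. Itgb1 and Itgb5 were higher with dox at 24 hours by less than 2-fold and did not pass, and Itgb3 was not tested. Itgb1 encodes the common partner of Itga3, Itga4, Itga5, Itga6 and Itga9. Its intensity was 439, 597 and 843 in DKK + dox, against 420, 591 and 633 in DKK. The conditions were nearly equal at 6 and 12 hours (0.06 and 0.01) and apart by 0.40 at 24 hours, and the fitted difference was 0.32 (95% interval 0.03 to 0.61, adjusted p = 0.133 from limma). The other 2 probe sets of Itgb1 over the limit were at 0.50 and 0.37 at 24 hours, and neither passed (adjusted p = 0.102 and 0.222 from limma).

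Itgb5, a partner of Itgav, had 426, 534 and 716 in DKK + dox, against 353, 392 and 546 in DKK. It was higher at each time, by 0.26, 0.43 and 0.38, while both conditions were higher at 24 than at 6 hours (0.72 in DKK + dox and 0.60 in DKK). The fitted difference of 0.50 (standard error 0.14, 95% interval 0.17 to 0.83) lay just over the threshold (adjusted p = 0.0563 from limma). It passed once arrays were centred on their medians (adjusted p = 0.047 from limma) or a stricter low-signal filter at the 60th percentile was used (adjusted p = 0.0453 from limma). Itgb5 did not pass in any other alternative tried. Adjusted p from limma was 0.0865 with quantile normalization, 0.227 with linear time and 0.0977 without the 24 hour pair. All 4 probe sets of Itgb5 were over the limit on every array and higher with dox at each time, with differences of 0.28 to 0.42 at 24 hours. Itgb3, the partner of Itgav in the vitronectin receptor of platelets and endothelium, had 25.3, 9.99 and 18.8 in DKK + dox, against 32.5, 13.9 and 8.55 in DKK. Both its probe sets were at low signal on all 6 arrays, so no difference is given.

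Cd44 differed with time more than with dox. Its intensity was 304, 143 and 110 in DKK + dox, against 290, 114 and 76.6 in DKK. Between 24 and 6 hours it was lower by -1.31 in DKK + dox and by -1.68 in DKK, and it was the only member at least 2-fold lower with time in either condition, against 3.72 percent of all genes in DKK + dox and 4.26 percent in DKK. The differences between conditions were 0.06, 0.28 and 0.43, and the fitted difference of 0.45 (95% interval 0.05 to 0.84) did not pass (adjusted p = 0.128 from limma). A second probe set showed the same loss with time, with 245, 89.2 and 57.4 in DKK + dox against 241, 64.1 and 60.6 in DKK, and had a difference of -0.06 at 24 hours. The third was over the limit only on both arrays at 6 hours, and the last was at low signal throughout.

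Of the 38 member probe sets, 24 exceeded the low-signal limit on at least 1 array, 18 of them on all 6. In the fit over probe sets, 2 member probe sets rose (those read for Itgav and Itga5), 2 fell (both of Itga6) and 20 did not pass, where 6.81 percent of all probe sets tested rose and 5.12 percent fell. Probe sets of 1 gene are hybridised with the same RNA and are not replicates. Itga6, Itgb1 and Itgb5 were read alike at 24 hours by every probe set over the limit. For Itga3, Itgav and Cd44, probe sets over the limit on all 6 arrays differed in sign at that time.

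**Figure D3:**
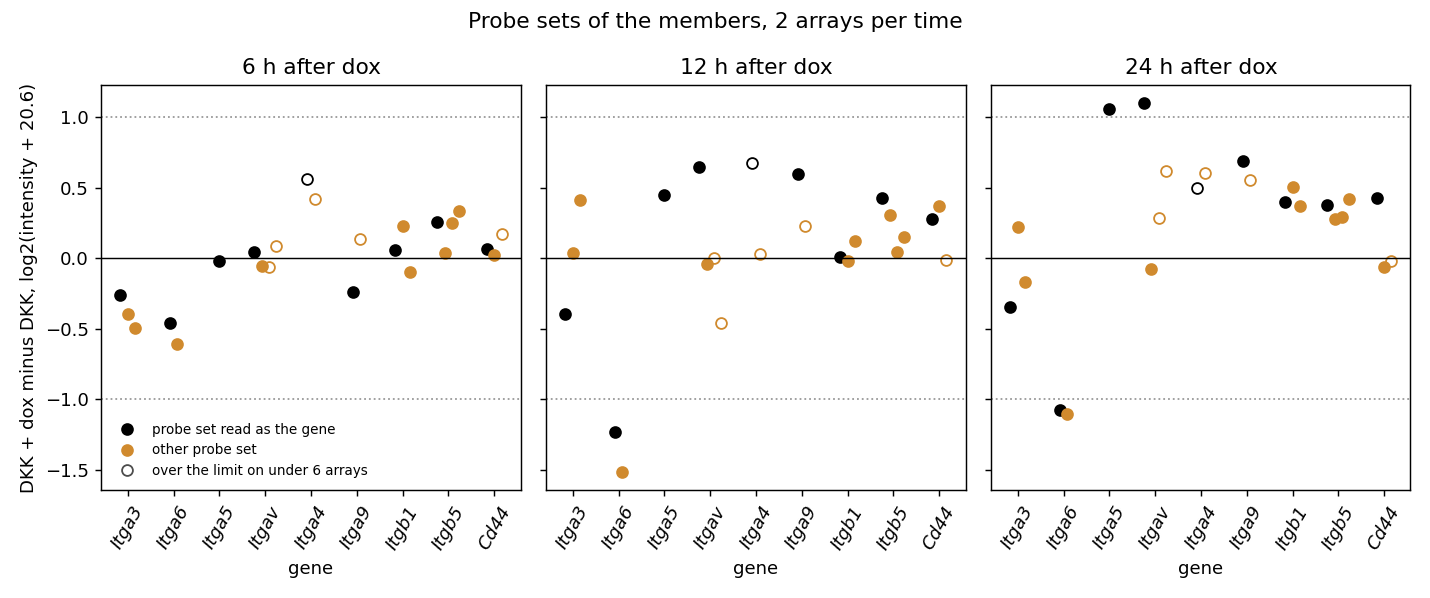
DKK + dox minus DKK in log2 units for the 24 member probe sets over the low-signal limit on at least 1 array, in 1 panel per time and 2 arrays per value, with the probe set read for a gene in black, others in orange, open circles where under 6 arrays exceeded the limit, and dotted lines at 2-fold. At 24 hours both probe sets of Itga6 lie under the lower line, while only 1 of the 4 Itgav probe sets shown lies above the upper line.

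Among the other integrin subunits, 16 of 18 listed genes were on the array, 13 were tested, 1 rose and none fell, which is close to the 8.32 percent and 6.38 percent of all genes. The gene that rose was Itga1, the alpha subunit of a collagen and laminin receptor formed with Itgb1. It had 28.6, 84.0 and 165 in DKK + dox, against 14.9, 22.2 and 17.5 in DKK, all 3 of the DKK values being at low signal (fitted difference 2.32, standard error 0.25, adjusted p = 0.00231 from limma). Itga1 passed the filter through the DKK + dox arrays alone, and without the 24 hour pair it did not pass the test (adjusted p = 0.0661 from limma). Itgb8, a partner of Itgav, had 26.3, 72.0 and 61.1 in DKK + dox, against 30.5, 117 and 115 in DKK, and its fitted difference of -0.80 did not pass (adjusted p = 0.055 from limma). Itgb8 passed as a fall with double the offset or quantile normalization (adjusted p = 0.0486 and 0.0474 from limma). It also passed with median centring or the mean of all probe sets (adjusted p = 0.04997 and 0.0332 from limma). With that mean the fitted difference stayed at -0.80, and its standard error was 0.18 in place of 0.23. Itgb8 did not pass in any other alternative tried. Adjusted p from limma was 0.0799 with the filter at the 60th percentile, 0.522 with linear time and 0.207 with a constant difference. Without the 6, 12 or 24 hour pair it was 0.0831, 0.123 and 0.318. Itgal and Itgax, alpha subunits of leukocytes, were at 20.1 and 14.8 in DKK + dox at 24 hours, against 59.2 and 38.7 in DKK, and did not pass. Itgb4, the other partner of Itga6 and named for that, was at low signal on every array. The median difference of the 13 at 24 hours was -0.07, against 0.02 over all genes.

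Of the genes for matrix ligands of these receptors, 21 of 30 listed were tested (27 were on the array): 8 rose, 1 fell and 12 did not pass, beside the 8.32 percent and 6.38 percent of all genes. The list was chosen with earlier results of these data known, so these shares do not test it. It mixes ligands of different receptors, and the genes described here are given with what they encode. Mfge8 and Ccn1 also rose (fitted differences 0.75 and 0.74, adjusted p = 0.0193 and 0.0304 from limma). Both were picked out after their values were seen and are not described further. The probe sets of Ccn1 over the limit ranged from -0.01 to 0.76 at 24 hours. Has2, which makes hyaluronan, had 615, 724 and 1246 in DKK + dox, against 348, 513 and 431 in DKK (fitted difference 1.47, adjusted p = 0.00436 from limma). Hapln1, which links hyaluronan to proteoglycans, had 1, 37.5 and 245 in DKK + dox, against 6.16, 15.3 and 1.89 in DKK, and had a fitted difference of 2.92 (adjusted p = 0.013 from limma). All 3 DKK values of Hapln1 were at low signal, so it passed the filter only through the DKK + dox arrays at 12 and 24 hours. The hyaluronan-binding proteoglycan Vcan, picked out after its values were seen, rose as well (fitted difference 1.35), but its value of 0.48 with the mean of its probe sets was not past the threshold (adjusted p = 0.205 from limma). Has1, another hyaluronan synthase, did not pass (fitted difference 0.35), and Has3 was at low signal on every array; both were named after their values were seen.

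Ligands of the alpha subunits were also among those that rose. Edil3, a secreted protein with an Arg-Gly-Asp motif, had 26.9, 81.5 and 196 in DKK + dox, against 27.7, 21.7 and 20.7 in DKK (fitted difference 2.30, adjusted p = 0.00456 from limma). It too passed the filter only through DKK + dox at 12 and 24 hours, and with the mean of its probe sets the fitted difference was 0.72 (adjusted p = 0.159 from limma). Emilin1, an elastic fibre protein that binds Itga4 and Itga9 receptors, rose with a fitted difference of 1.93. Edil3 and Emilin1 are shown by the study from these same arrays, so their direction is not independent of its choice. Fn1, or fibronectin, had 1669, 886 and 1858 in DKK + dox, against 1914, 791 and 697 in DKK. It was lower with dox at 6 hours and higher at 24 hours, and rose in the fit (fitted difference 1.08, adjusted p = 0.0228 from limma), a call that rests on the 24 hour pair: without it the value was 0.10 (adjusted p = 0.868 from limma). With the mean of its probe sets Fn1 did not pass either (adjusted p = 0.0577 from limma). Lama5, a laminin chain of basement membranes and a ligand of Itga3 and Itga6, had 114, 75.6 and 75.1 in DKK + dox, against 153, 189 and 207 in DKK, and fell (fitted difference -1.45, adjusted p = 0.0078 from limma). Fn1 and Lama5 were named once their values had been seen. The other laminin chains tested, Lama1, Lama2, Lamb1 and Lamc1, picked out in the same way, did not pass. Lama4 was not tested, since the probe set read for it was at low signal on every array. Another Lama4 probe set, over the limit on at least 1 array, was at 1.81 at 24 hours. Without the 24 hour pair Vcan and Lama5 passed, and Has2, Hapln1, Edil3, Emilin1 and Fn1 did not, with Hapln1 at 0.87. The median difference of the 21 genes at 24 hours was 0.40.

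Inside the cell, 33 of 36 listed genes of the adhesion complex and of the ezrin, radixin and moesin group were tested, and 14 rose, 1 fell and 18 did not pass, beside 8.32 percent of all genes that rose and 6.38 percent that fell. Their median difference was 0.26 at 24 hours, and none of those that rose was 2-fold higher at that time. This list too was chosen with earlier results of these data known, so the shares do not test it. Tln1, or talin, which activates integrins by binding the beta tail, had 290, 394 and 435 in DKK + dox, against 296, 285 and 219 in DKK (fitted difference 0.87, adjusted p = 0.0124 from limma). Its other probe sets over the limit reached down to 0.06 at 24 hours. Flna, or filamin A, which crosslinks actin and binds beta tails, had 564, 1092 and 1564 in DKK + dox, against 642, 853 and 805 in DKK (fitted difference 0.82, adjusted p = 0.0175 from limma). The kinase-like adaptor Ilk also rose (fitted difference 0.60), as picked out after its value was seen.

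The gene that fell was Ezr, or ezrin, which links Cd44 and other membrane proteins to actin at the apical surface of epithelia. It had 1240, 600 and 694 in DKK + dox, against 1759, 2044 and 2348 in DKK, with no overlap and differences of -0.50, -1.73 and -1.73 (fitted difference -2.07, standard error 0.26, adjusted p = 0.00387 from limma). Its relatives had the opposite sign: Msn, or moesin, and Rdx, or radixin, both picked out after their values were seen, rose with fitted differences of 0.57 (adjusted p = 0.0207 from limma) and 0.33 (adjusted p = 0.0335 from limma). Without the 24 hour pair Ezr passed at -3.17, and Msn, Rdx, Tln1, Flna and Ilk did not, with Flna at 0.41 and Rdx at 0.19. Without the 6 hour pair Rdx did not pass (adjusted p = 0.0543 from limma). With the mean of its probe sets Rdx was at 0.29 and did not pass either (adjusted p = 0.123 from limma). With linear time Msn and Rdx did not pass (adjusted p = 0.424 and 0.252 from limma), and Ezr did (adjusted p = 0.0454 from limma). Lacking the intensity trend, Ezr, Msn and Rdx all failed to pass (adjusted p = 0.0626, 0.107 and 0.184 from limma). Fermt3, the kindlin of blood cells, had 102, 91.5 and 55.2 in DKK + dox, against 173, 104 and 120 in DKK, and did not pass (adjusted p = 0.0612 from limma); its probe sets over the limit differed in sign at 24 hours.

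**Figure D4:**
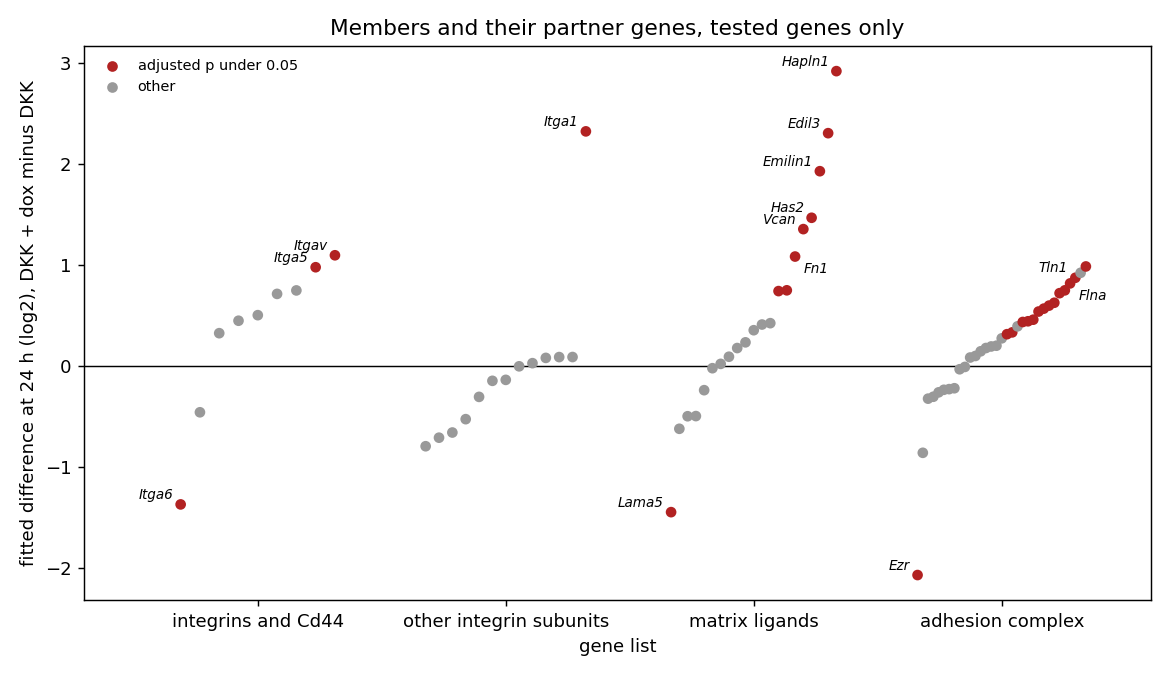
Fitted difference at 24 hours, DKK + dox minus DKK in log2 units, for each tested gene of the members and of the lists of other integrin subunits, matrix ligands and adhesion complex genes, ordered by value within a list, with an adjusted p under 0.05 in red. Itga6 (-1.37), Lama5 (-1.45) and Ezr (-2.07) are the genes of the 4 lists that fell.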

How the data were processed

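Total RNA of the 6 cultures was hybridised to Affymetrix MOE430_2.0 arrays. The deposited intensity values were normalized and modeled by the authors with dChip, with a lowest value of 1; the dChip version and model were not given in the sources used here. Gene symbols came from the annotation of the array platform (34945 with 1 symbol, 932 with several and 9160 with none listed), and 34741 matched the RefSeq table of GRCm38.p6 by Entrez ID, with 0 symbols changed. Each gene took its brightest probe set, and genes at or under 37.2 on every array were left out. limma 3.58.1 in R 4.3.3 (lmFit, eBayes with an intensity trend) fitted 4 coefficients. The same fit was run over 26362 probe sets. The fit was tested on simulated data. On each array 37.5 to 41.3 percent of probe sets were at low signal, and the number of arrays limits the precision. Alternatives in offset, filter, normalization, probe set, model and left-out time were tried. The members and lists were chosen with earlier results of these data known. Named genes are all members, for each list up to 4 genes over the limit at 24 hours that differed most then, Snai1 and Cdh1; others are said to be picked out later. Marker genes are given as sums only. Figures used matplotlib 3.10.9 in Python 3.11.15.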

Additional observations from a re-analysis of the deposited data

Results flagged for a closer look

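Of the 9 tested members, Itga5 and Itga9 were lower with dox at 6 hours and higher at 24 hours, with a signal over the limit on all 6 arrays. Itga5 was nearly level at 6 hours (-0.02) and at 1.06 at 24 hours, and Itga9 was at -0.23 and 0.69. Each value compares 2 arrays, and the change between the times was not tested.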

How the results depend on the processing

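Without the 24 hour pair the fitted difference of Itga6, extended to 24 hours, was -2.33, and with a constant difference -0.92, against -1.37. The 14 alternatives left the sign of every fitted difference of the members as it was. Of 123 such values, 109 stayed on the same side of the threshold, 12 lost it and 2 (both of Itgb5) gained it. All 12 that lost it were of Itga5, Itga6 and Itgav, the only members that had passed and so could lose it. Members that rose numbered 0 with the mean of all probe sets, a constant difference, no intensity trend or without the 24 hour pair, and 1 with only plain probe sets (Itgav, as Itga5 was then not tested) or linear time (Itgav), against 2. Those that fell numbered 0 with linear time, a constant difference or no intensity trend, against 1. Member probe sets that passed numbered 1 with linear time, 2 with a constant difference (lowest adjusted p of any probe set 0.037 from limma), 0 without the intensity trend and 2 without the 24 hour pair, against 4. Members at least 2-fold higher at 24 hours numbered 1 with double the offset, against 2. Other integrin subunits that passed numbered 2 with double the offset, quantile normalization, median centring or probe sets averaged, and 0 with a constant difference or without the 24 hour pair, against 1. Matrix ligands numbered 5 with the mean of all probe sets, 3 with linear time, 3 without the intensity trend, 0 with a constant difference and 2 without the 24 hour pair, against 9. Adhesion complex genes numbered 8 with the mean of all probe sets, 1 with linear time, 0 with a constant difference, 0 without the intensity trend, 8 without the 6 hour pair and 2 without the 24 hour pair, against 15. Over all genes, 121 rose and 80 fell with linear time, 0 and 0 with a constant difference (2927 at an unadjusted p under 0.05 from limma, lowest adjusted p 0.0516), 209 and 76 without the intensity trend, 793 and 533 without the 6 hour pair, and 229 and 499 without the 24 hour pair, against 1227 and 941. Of the other named genes, Fermt3 turned to 0.25 with only plain probe sets, and Itgal and Itgax to 0.34 and 0.15 without the 24 hour pair; none of these values passed. Apart from fewer arrays or probe sets, the cause was not tested. The labels carry no replicate numbers, and the conditions were paired by time point, as a block, in every fit except that with linear time.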
